A study of Mus musculus with 2 samples.

Results

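Nuclear respiratory chain subunit genes were examined in the gastrocnemius, the main calf muscle, of newborn mice. The genes were chosen by symbol, as protein-coding genes of the NADH dehydrogenase (Nduf), succinate dehydrogenase (Sdh), cytochrome bc1 (Uqcr and Cyc1), cytochrome c oxidase (Cox4 to Cox8) and ATP synthase (Atp5) families. The rule found 84 genes with counts out of 17859 genes with counts in all, of which 14734 were protein-coding. They carry 83 distinct symbols, since Atp5o is listed under 2 gene identifiers, and all 84 had counts in both libraries. By complex there were 37 genes for complex I, 4 for complex II, 9 for complex III, 16 for complex IV and 18 for complex V. The rule did not match the symbol of Ndufab1, a complex I subunit, which is described with the other pathway genes.

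The respiratory chain passes electrons from NADH and succinate through complexes I and II to ubiquinone, then through complex III and cytochrome c to complex IV, where oxygen is reduced. Complexes I, III and IV pump protons across the inner mitochondrial membrane, and complex V, the ATP synthase, uses the gradient to make ATP. Most subunits are encoded in the nucleus, a few of them by gene pairs with a form known for heart and skeletal muscle and a form found broadly. In muscle the supply of these subunits is known to grow, and the muscle forms to gain on the broad ones, as the tissue matures.

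Long-read RNA sequencing, in which a read can span a transcript from end to end, was applied to gastrocnemius tissue of male mice aged 4 days, of the F1 hybrid strain B6CASTF1/J. The series holds a single group of 2 libraries, replicate 1 and replicate 2, each made from 2 µg of total RNA. There was no treated or mutant group, so the libraries could be compared with each other but no condition was tested. The labels give each library a biosample of its own but name the same donor entry for both, so it was not settled whether they came from different mice, and every p-value measures only the difference between these libraries.

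The deposited counts summed to 1066347 in replicate 1 and 1100253 in replicate 2, of which 93.7% and 93.3% fell on annotated mouse genes. The transcript models that carried those counts had a median length of 2340 bases in replicate 1 and 1989 bases in replicate 2. Skeletal muscle markers such as Acta1 and Ckm summed to 148915 CPM in replicate 1 and 148314 CPM in replicate 2. CPM is the count scaled to a library of 1000000 annotated gene counts. The near-equal sums hide differences in both directions. Of these 8 markers 4, Acta1 and Ckm among them, were called lower in replicate 1 (adjusted p under 0.05, Fisher's exact test). Another 3 were called higher, such as Atp2a1 at 46440 CPM in replicate 1 and 25893 CPM in replicate 2. Over all genes tested, 4.49% were called higher and 5.25% lower in replicate 1. Of the 5 heart muscle markers 4 had no count. Ucp1, the uncoupling protein of brown fat, had no count in either library, which allows up to 3.00 CPM in replicate 1 and 2.92 CPM in replicate 2. Other brown fat markers did have counts, with Cidea at 13 in replicate 1 and 33 in replicate 2 and Prdm16 at 13 in each. The 5 brown fat markers summed to 28.0 CPM in replicate 1 and 54.6 CPM in replicate 2. Other marker lists differed between the libraries in either direction. Fibroblast markers summed to 36798 CPM in replicate 1 and 24766 CPM in replicate 2, and fast-fibre markers to 4999 and 3142 CPM in the same order. Both sums were higher in replicate 1, but the lists were mixed. Of 5 fibroblast markers 2 were called higher in replicate 1 and 1, Dcn, lower. Of 5 fast-fibre markers 3 were called higher in replicate 1 and 1, Tnnt3, lower. Lower in replicate 1 were the sums of adipocyte markers at 179 CPM, against 441 CPM in replicate 2, of Schwann cell markers at 1426 against 3452 CPM, and of epidermal markers at 4.01 against 847 CPM. Sums were also lower in replicate 1, by less, for slow-fibre markers (2289 against 2803 CPM), endothelium (418 against 496 CPM) and red blood cells (258 against 401 CPM). Of 7 slow-fibre markers 4 were called lower in replicate 1 and 2, Myh7 and Atp2a2, higher. Of 4 endothelial markers 1, Cldn5, was called lower in replicate 1. Cdh5 (41.1 against 31.2 CPM) and Pecam1 (77.1 against 68.2 CPM) leaned the other way and were not called.

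The 84 genes took 29677 counts in replicate 1 and 35339 in replicate 2. That was 2.97% (95% exact interval 2.94 to 3.01%) of the annotated gene counts in replicate 1 and 3.44% (3.41 to 3.48%) in replicate 2, with a mean of 3.21 ± 0.334% (SD, n = 2). The intervals, here and below, cover counting error only. In tissue RNA, fewer cells of a type and less RNA per cell cannot be told apart. A long read stands for a single transcript molecule, so levels are given as CPM and not divided by length, and the length of the annotated transcript is given where genes are compared. Complex V took 1.21 ± 0.0315% of the annotated gene counts, complex I 0.852 ± 0.148%, complex IV 0.506 ± 0.113%, complex III 0.449 ± 0.0393% and complex II 0.188 ± 0.00162% (mean ± SD, n = 2 each). With its 18 genes complex V held 40.1% of all the subunit counts in replicate 1 and 35.9% in replicate 2, more than complex I with 37 genes, which held 25.2% in replicate 1 and 27.8% in replicate 2.

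Single genes ranged from 1.48 CPM for Cox6b2 to 3986 CPM for Atp5b. Their order was much the same in both libraries: Spearman's rho of the levels was 0.97 across 82 genes, given as a description, since genes are not independent replicates. Of these genes 5 stood among the 100 protein-coding genes with the highest mean levels, namely Atp5b, Atp5a1, Cox4i1, Uqcrc1 and Sdha.

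**Figure D1:**
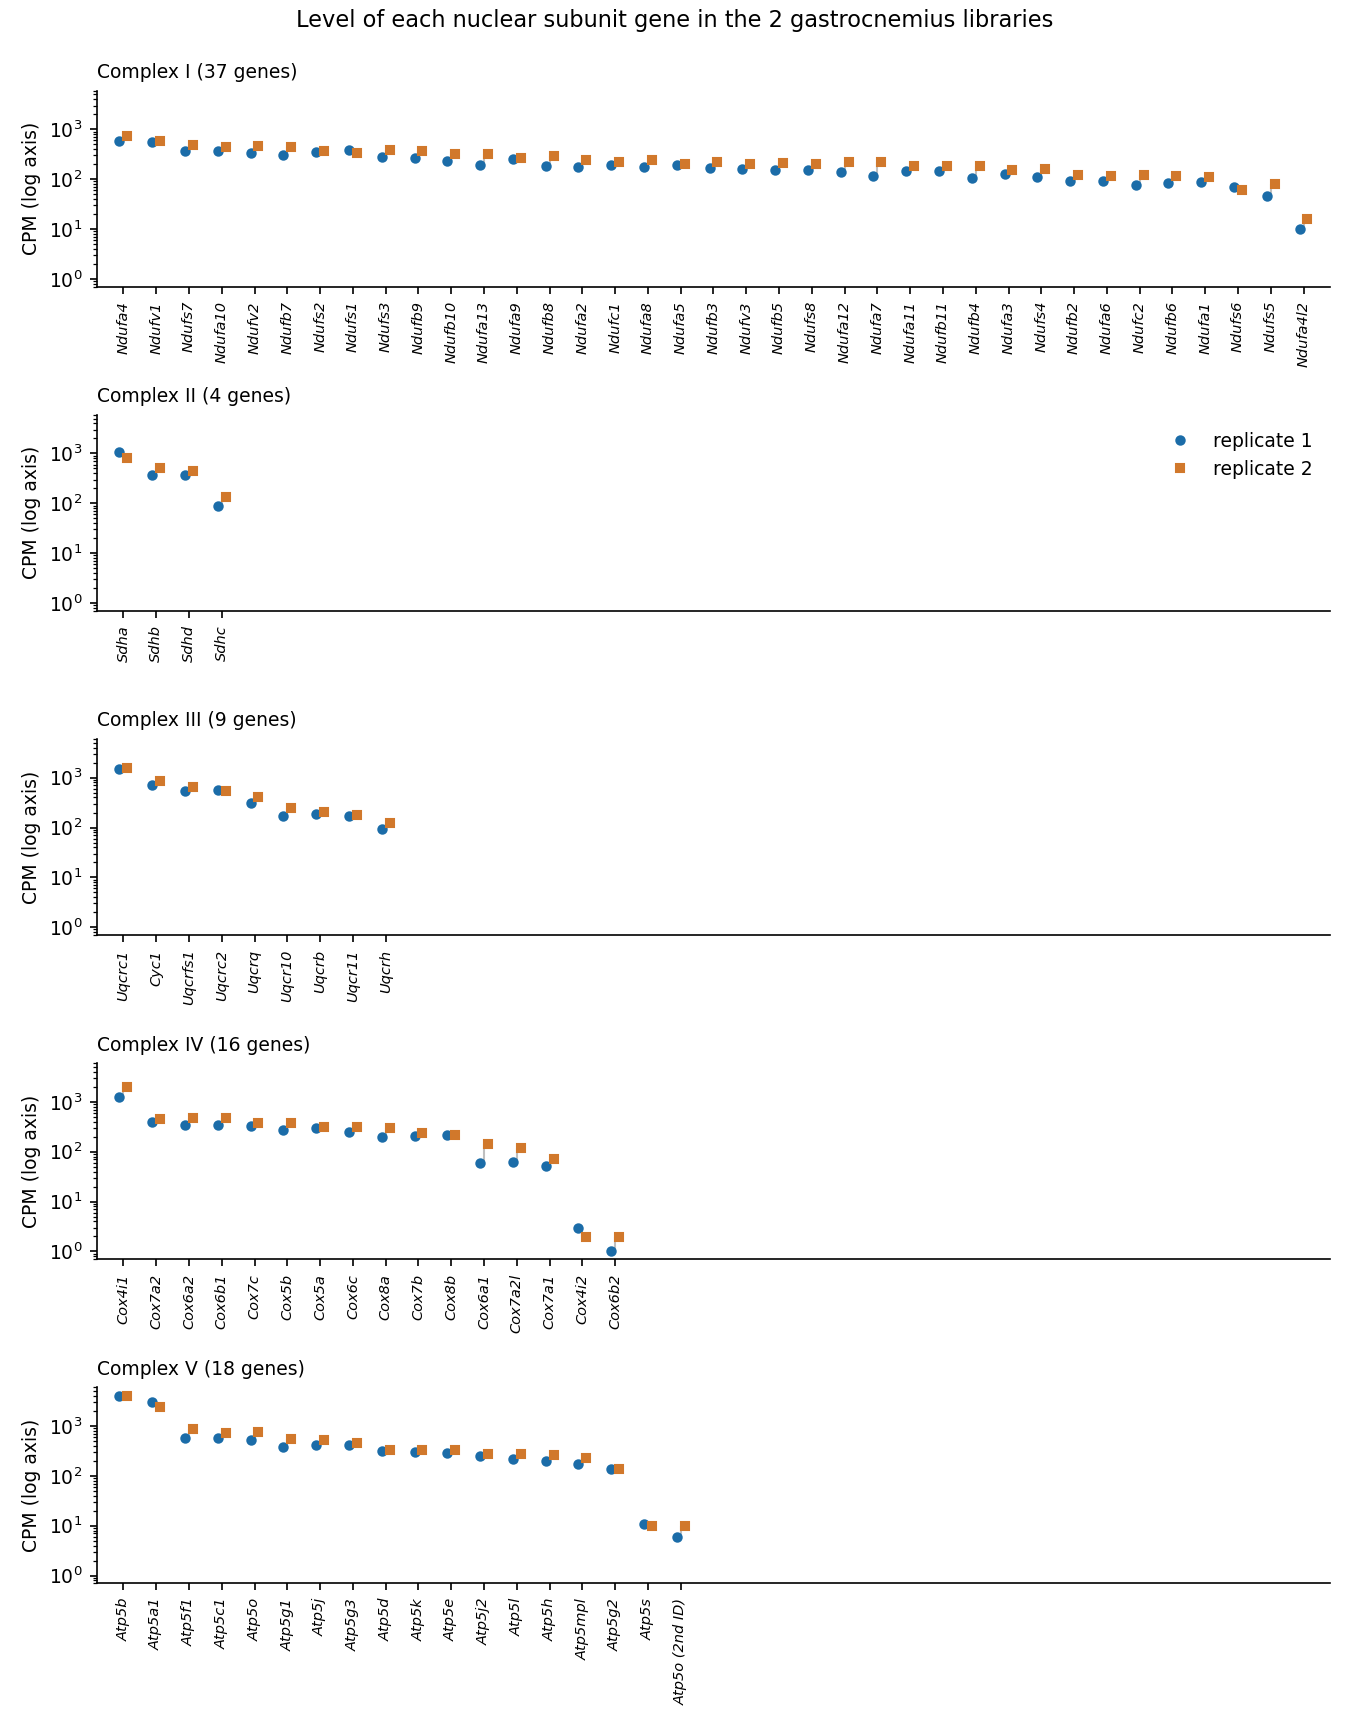
Level of each of the 84 subunit genes in CPM (log axis), by complex and from high to low within it; circles are replicate 1, squares are replicate 2, and a line joins both. Atp5b and Atp5a1 stand above all others, most complex I genes lie between about 100 and 500 CPM, and Cox4i2 and Cox6b2 lie near 2 CPM.

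Complex I takes electrons from NADH. Its 7 nuclear core subunits, which hold the flavin and the iron-sulfur clusters and are conserved down to bacteria, had mean levels of 179 to 565 CPM, and the other 30 genes ran from 12.8 to 664 CPM. Ndufa4 was the highest by name, at 593 CPM in replicate 1 and 736 CPM in replicate 2, a mean of 664 ± 101 CPM (SD, n = 2) for a transcript of 610 bases. It keeps its complex I symbol although its protein is now known as a subunit of complex IV. Ndufv1, the subunit that binds NADH and the flavin, had 554 CPM in replicate 1 and 576 CPM in replicate 2, with little difference between them. Ndufs7, an iron-sulfur subunit next to the ubiquinone site, had 370 CPM in replicate 1 and 478 CPM in replicate 2. Ndufa4l2, a paralog of Ndufa4 known to be induced by low oxygen, was the lowest, at 10.0 CPM in replicate 1 and 15.6 CPM in replicate 2, so Ndufa4 exceeded it by a wide margin in each library. The next lowest were Ndufs5 at 63.0 ± 23.9 CPM and Ndufs6 at 64.7 ± 4.74 CPM (SD, n = 2 each), both small accessory subunits; a pseudogene matching Ndufs5 held a further 38 counts in replicate 1 and 45 in replicate 2.

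Complex II oxidizes succinate and also belongs to the citric acid cycle. Its flavoprotein Sdha had 1050 CPM in replicate 1 and 797 CPM in replicate 2, one of the few subunits that were higher in replicate 1. The iron-sulfur subunit Sdhb had 363 CPM in replicate 1 and 517 CPM in replicate 2. The membrane anchor Sdhd had 362 CPM in replicate 1 and 441 CPM in replicate 2. The other anchor, Sdhc, was the lowest, at 90.1 CPM in replicate 1 and 133 CPM in replicate 2. The 4 subunits, which are present in equal numbers in the enzyme, thus had mean transcript levels between 112 and 924 CPM, and the flavoprotein ranked first in both libraries.

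Complex III hands electrons from ubiquinol to cytochrome c. Uqcrc1, a core protein with no redox group of its own, had 1475 CPM in replicate 1 and 1551 CPM in replicate 2, a mean of 1513 ± 53.9 CPM (SD, n = 2). Cyc1, cytochrome c1, had 712 CPM in replicate 1 and 857 CPM in replicate 2. Uqcrfs1, the Rieske iron-sulfur protein, had 537 CPM in replicate 1 and 656 CPM in replicate 2. The other core protein, Uqcrc2, was close in both libraries, at 553 CPM in replicate 1 and 540 CPM in replicate 2. The 5 small subunits had mean levels of 109 to 364 CPM, with Uqcrh, the acidic hinge protein, lowest. Together the core proteins and both redox subunits held 77.8% of the complex III counts in replicate 1 and 75.6% in replicate 2.

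Complex V contains a catalytic head that makes ATP, a rotating ring of c subunits in the membrane and a peripheral stalk that holds the head in place. Atp5b, the catalytic beta subunit, had 4056 CPM in replicate 1 and 3916 CPM in replicate 2, the highest level of all 84 genes and rank 19 among protein-coding genes. Atp5a1, the alpha subunit, had 3067 CPM in replicate 1 and 2362 CPM in replicate 2. Alpha and beta, of which each head holds several copies, took 59.8% of the complex V counts in replicate 1 and 50.8% in replicate 2. The other head subunits were lower: Atp5c1 (gamma) averaged 644 ± 114 CPM, Atp5d (delta) 324 ± 9.81 CPM and Atp5e (epsilon) 306 ± 24.1 CPM (SD, n = 2 each).

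Among the peripheral stalk genes Atp5f1, which encodes subunit b, was highest, at 563 CPM in replicate 1 and 872 CPM in replicate 2. The other stalk genes averaged 639 ± 150 CPM for Atp5o (the oligomycin sensitivity protein), 468 ± 65.7 CPM for Atp5j (F6) and 230 ± 41.0 CPM for Atp5h (subunit d). The 4 membrane subunits Atp5j2, Atp5k, Atp5l and Atp5mpl had mean levels of 200.1 to 316 CPM. The lowest members of the family were a second Atp5o identifier, at 7.88 ± 2.64 CPM and with models of the genomic class alone, and Atp5s at 10.4 ± 0.898 CPM. Atp5s was included by its symbol, but its protein is not a structural subunit of the enzyme.

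The c ring is built from a single mature peptide that 3 genes, Atp5g1, Atp5g2 and Atp5g3, encode behind different mitochondrial targeting sequences. Over the last 76 codons, which hold the mature peptide and the stop codon, the coding sequences were 85.1% identical between Atp5g1 and Atp5g2, 79.8% between Atp5g1 and Atp5g3 and 78.5% between Atp5g2 and Atp5g3. Atp5g1 had 383 CPM in replicate 1 and 554 CPM in replicate 2. Atp5g3 had 420 CPM in replicate 1 and 463 CPM in replicate 2. Atp5g2 was the lowest, at 135 CPM in replicate 1 and 140 CPM in replicate 2. The first 2 of these genes changed places between the libraries, so their order is not settled, whereas Atp5g2 was under both in each. Its level is uncertain, because 2 processed pseudogenes that match Atp5g2 best held 188 counts in replicate 1 and 243 in replicate 2, against 135 and 144 counts on the gene itself.

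Complex IV passes electrons to oxygen. Cox4i1, the broad form of the largest nuclear subunit, led it with 1242 CPM in replicate 1 and 2011 CPM in replicate 2. Cox7a2 had 389 CPM in replicate 1 and 446 CPM in replicate 2, and Cox6a2 had 344 CPM in replicate 1 and 469 CPM in replicate 2. Several paralogs were close to absent. Cox4i2, a form known from lung, had 3 counts in replicate 1 and 2 in replicate 2. Cox6b2, a form known from testis, had 1 count in replicate 1 and 2 in replicate 2, against 335 and 486 counts, in the same order, for its paralog Cox6b1. Further testis forms that the annotation types as protein-coding, Cox7b2 and Cox8c, had no count in either library, and so were not members, whereas Cox7b averaged 224 ± 17.3 CPM (SD, n = 2). Cox7a2l, a Cox7a relative that joins complexes III and IV into supercomplexes, had 62.1 CPM in replicate 1 and 118 CPM in replicate 2, levels that are uncertain because a processed pseudogene that matches it best held 10 counts in replicate 1 and 97 in replicate 2.

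In 3 complex IV subunits the muscle form and the broad form are encoded by different genes, and the balance between the forms differed from subunit to subunit. For Cox6a the muscle form led: Cox6a2 had 344 counts and Cox6a1 59 counts in replicate 1, and they had 481 and 148 counts in replicate 2. Cox6a2 was thus 85.4% (95% exact interval 81.5 to 88.7%) of the Cox6a counts in replicate 1 and 76.5% (73.0 to 79.7%) in replicate 2. For Cox7a the broad form led: Cox7a1 had 51 counts and Cox7a2 388 counts in replicate 1, and they had 74 and 458 counts in replicate 2. Cox7a1, the muscle form, was 11.6% (8.77 to 15.0%) of the Cox7a counts in replicate 1 and 13.9% (11.1 to 17.1%) in replicate 2.

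For Cox8 the forms were near balance: Cox8b had 212 counts and Cox8a 195 counts in replicate 1, and they had 217 and 301 counts in replicate 2. Cox8b, the muscle form, was 52.1% (47.1 to 57.0%) of the Cox8 counts in replicate 1 and 41.9% (37.6 to 46.3%) in replicate 2. The majority form of Cox8 therefore differed between the libraries, while that of Cox6a and Cox7a did not. The order of the mean muscle-form shares was Cox6a at 80.9 ± 6.29%, Cox8 at 47.0 ± 7.21% and Cox7a at 12.8 ± 1.62% (SD, n = 2 each), and the intervals of the 3 subunits did not overlap in either library. The exact intervals of the libraries did not overlap for Cox6a or Cox8, whose muscle shares were higher in replicate 1, and did overlap for Cox7a. The annotated transcripts are short, 680 bases for Cox6a2 and 571 for Cox6a1, 393 for Cox7a1 and 659 for Cox7a2, and 360 for Cox8b and 550 for Cox8a. Divided by those lengths the mean muscle shares were 78.1% for Cox6a, 19.7% for Cox7a and 57.4% for Cox8.

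**Figure D2:**
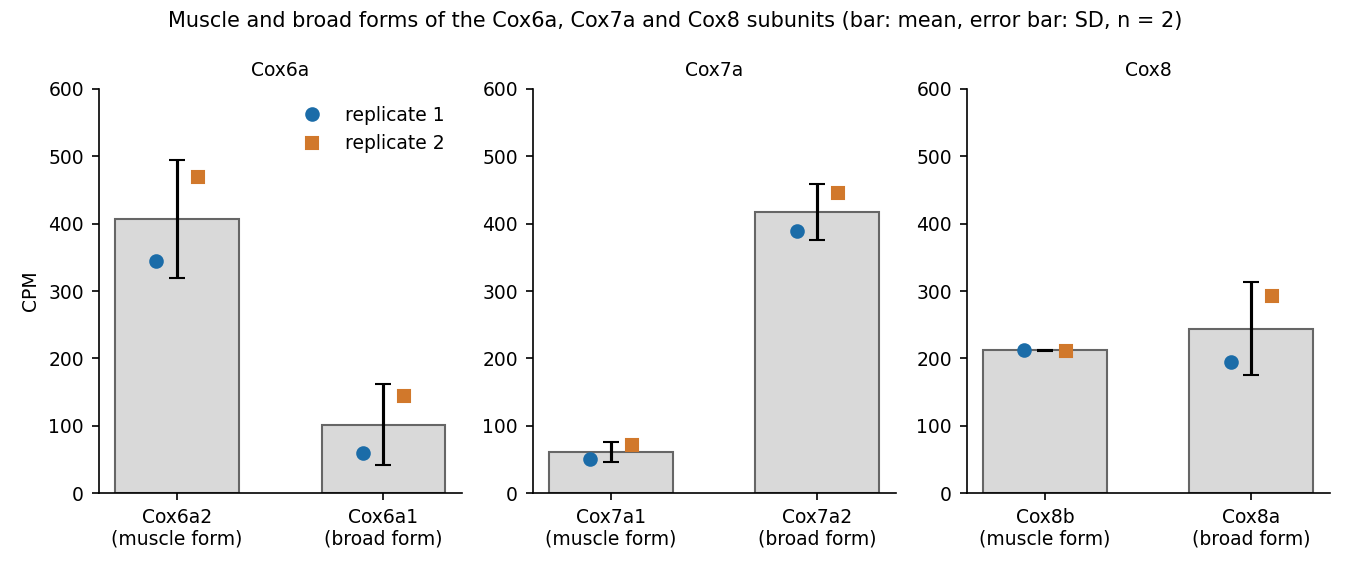
Level in CPM of the muscle form (left) and the broad form (right) of 3 complex IV subunits; bars are means with SD over 2 libraries, circles replicate 1 and squares replicate 2. Cox6a2 exceeds Cox6a1 and Cox7a1 is under Cox7a2 in both libraries, while Cox8b and Cox8a overlap.

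The pairs can be counted apart because their coding sequences are far from identical, 51.1% over the alignment for Cox8b and Cox8a, 55.9% for Cox6a2 and Cox6a1 and 59.0% for Cox7a1 and Cox7a2. The coding sequences of the Cox8 pair are shown because its balance was the least settled; they are given 5′ to 3′ from the GENCODE M21 transcripts (mm10), stop codon included, and capitals mark the bases that differ between the aligned forms or face a gap. Cox8b lies on the minus strand with its coding bases between chr7:140898988-140900342, and Cox8a on the minus strand between chr19:7215389-7217512.
Cox8b: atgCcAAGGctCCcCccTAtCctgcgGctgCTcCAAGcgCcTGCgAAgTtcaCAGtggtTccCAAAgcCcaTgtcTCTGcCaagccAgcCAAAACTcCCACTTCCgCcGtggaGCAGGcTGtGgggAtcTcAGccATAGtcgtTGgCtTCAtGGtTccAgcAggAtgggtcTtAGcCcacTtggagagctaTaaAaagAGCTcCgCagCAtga
Cox8a: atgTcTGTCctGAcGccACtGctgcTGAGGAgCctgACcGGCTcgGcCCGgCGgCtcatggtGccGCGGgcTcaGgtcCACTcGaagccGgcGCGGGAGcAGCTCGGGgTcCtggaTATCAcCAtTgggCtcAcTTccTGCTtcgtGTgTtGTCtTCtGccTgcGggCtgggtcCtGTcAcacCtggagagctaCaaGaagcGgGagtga

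Because each count is tied to a transcript model, the structure of the transcripts could be followed, with models of both libraries matched by their intron chain. Models of annotated chains held 86.1% of the subunit counts in replicate 1 and 85.3% in replicate 2, compared with 72.5% and 75.4%, in the same order, for all annotated genes. Chains that are an incomplete stretch of an annotated one held 11.2% of the subunit counts in replicate 1 and 11.95% in replicate 2. Over all annotated genes such chains held 9.74% and 9.33%, in the same order. New combinations of annotated sites held 1.02% in replicate 1 and 0.906% in replicate 2, and chains with a new site 1.08% in replicate 1 and 1.17% in replicate 2. Among the 77 genes with at least 20 counts of complete annotated or new chains in each library, the leading chain was an annotated one in all 77. In 58 of these it held at least 90% of such counts in both libraries, and in 2, Ndufs1 and Atp5j, it held under 60% in both. Such counts leave out the incomplete chains. In Atp5j a 4-exon incomplete chain that holds a whole annotated coding region took 304 of all 421 counts in replicate 1. In replicate 2 it took 363 of 528.

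The share of the leading chain passed the test of a difference between the libraries (Fisher's exact test, adjusted over all genes tested) in 0 of these 77 genes, against 0.449% of the 5351 genes tested. At an unadjusted p under 0.05 there were 4, namely Cox4i1, Uqcr10, Atp5g1 and Ndufs3, against 5.68% of all genes tested, so the members' share was near that of all genes. With incomplete and genomic chains in the denominator 2 of the 77 genes passed, against 1.03% of all genes tested: the leading chain of Atp5b held 81.1% of its counts in replicate 1 and 73.9% in replicate 2, and that of Cox4i1 57.3% in replicate 1 and 63.5% in replicate 2.

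A chain was counted as full-coding when it held every intron and the whole span of an annotated coding region. In the 79 genes with at least 20 counts in each library, the median full-coding share of a gene's counts was 94.5% in replicate 1 and 95.3% in replicate 2. It was at least 90% in both libraries in 57 genes and under 50% in both in 3, namely Cox4i1, Ndufa4 and Ndufb3. The leading Cox4i1 chain, with 710 counts in replicate 1 and 1311 in replicate 2, was Cox4i1-204, a model of 3 exons annotated as retained intron. As annotated it starts before the third exon of the coding form and shares its last 2 introns. The chain holds no other intron, so a read of the coding form that lacks its first exons could not be told from it by intron chain. The coding chain Cox4i1-201, with 5 exons, had 490 counts in replicate 1 and 705 in replicate 2. Full-coding chains thus made up 41.7% of the Cox4i1 counts in replicate 1 and 35.6% in replicate 2.

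Ndufa4 was divided between a full chain of 4 exons, with 291 counts in replicate 1 and 349 in replicate 2, and a chain of the last 2 exons, 281 bases long, with 295 counts in replicate 1 and 401 in replicate 2. Ndufb3 showed the same kind of division, with 56 counts in replicate 1 and 85 in replicate 2 for its 3-exon coding chain. A single-exon model of 316 bases held 107 Ndufb3 counts in replicate 1 and 139 in replicate 2. In Atp5b a chain of the last 2 exons held 597 counts in replicate 1 and 857 in replicate 2, beside 3287 counts in replicate 1 and 2969 in replicate 2 for the 10-exon coding chain. Both Atp5f1 and Ndufa13 were led by chains that the deposited table classes as incomplete but that hold the whole coding region. For Atp5f1 a 7-exon chain took 529 of the 562 counts in replicate 1 and 851 of the 895 in replicate 2. For Ndufa13 a 4-exon chain took 187 of the 193 counts in replicate 1 and 323 of the 329 in replicate 2. Levels that leave out incomplete and genomic models therefore drop to 16.3 CPM for Atp5f1, against 717 CPM with all models, and to 2.83 CPM for Ndufa13, against 257 CPM.

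**Figure D3:**
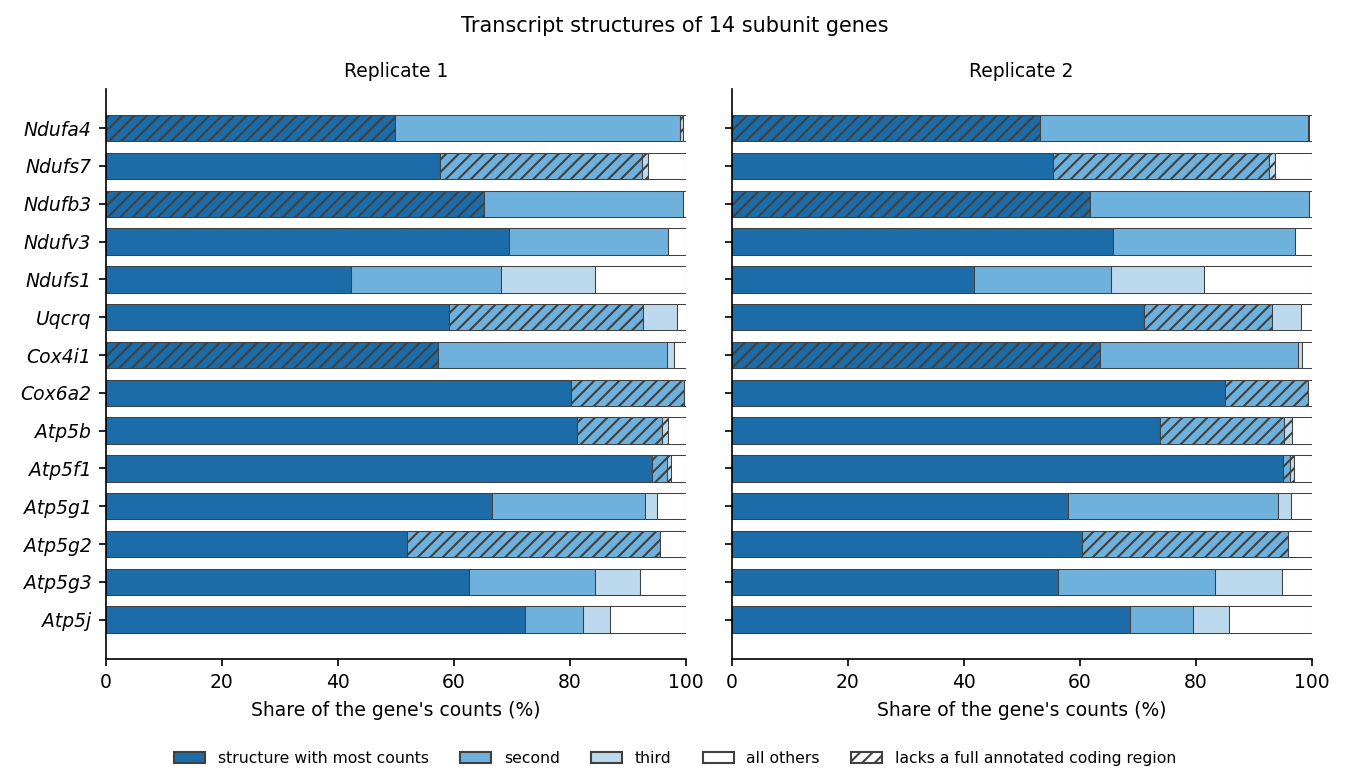
Share of a gene's counts (percent) held by its leading 3 transcript structures in replicate 1 (left panel) and replicate 2 (right panel), for 14 genes with divided counts; hatching marks structures that lack a full annotated coding region. Cox4i1, Ndufa4 and Ndufb3 are led by hatched structures in both libraries.

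Several genes used more than one chain with the same coding region. Ndufs1, the largest iron-sulfur subunit of complex I, was spread mainly over 4 chains that differ upstream of the start codon alone. Ndufs1-201 had 162 counts in replicate 1 and 141 in replicate 2, and Ndufs1-203 had 99 in replicate 1 and 80 in replicate 2. Unannotated 20-exon chains with an added exon of 104 bases at chr1:63172154-63172257 had 62 and 18 counts in replicate 1 and 54 and 28 counts in replicate 2. Atp5g1 used first-intron donors 70 bases apart, with 254 counts for Atp5g1-202 and 101 for Atp5g1-201 in replicate 1, and 330 and 206 in replicate 2. Atp5g3 used donors 10 bases apart, with 262 counts for Atp5g3-201 and 91 for Atp5g3-202 in replicate 1, and 267 and 129 in replicate 2. In each of these genes the same chain led in both libraries.

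Ndufv3, an accessory subunit of the NADH-binding arm of complex I, used chains with different coding regions. The short form Ndufv3-202, with 312 coding bases, had 112 counts in replicate 1 and 138 in replicate 2. The long form Ndufv3-201, with 1404 coding bases, includes an exon of 1092 bases at chr17:31527310-31528401, and had 44 counts in replicate 1 and 66 in replicate 2. The short form held 69.6% of the gene's counts in replicate 1 and 65.7% in replicate 2.

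Atp5c1, the gamma subunit that turns inside the catalytic head, has an alternative exon 9 of 37 bases at chr2:10056770-10056806 on the minus strand. In human and bovine tissue the form without this exon is known from heart and skeletal muscle and the form with it from other tissues. The chain without exon 9, Atp5c1-201, had 480 counts (85.3% of the gene's counts) in replicate 1 and 604 counts (81.2%) in replicate 2. The chain with exon 9, Atp5c1-203, had 43 counts (7.64%) in replicate 1 and 85 counts (11.4%) in replicate 2. The coding regions have 891 bases without and 894 with the exon, not counting the stop codon. The last 30 bases of each coding sequence, stop codon included, are shown 5′ to 3′ from the GENCODE M21 transcripts, with capitals for the bases after the exon that both forms share.
Atp5c1-201, without exon 9: gaaatcatctctggggctgctgctctGTAA
Atp5c1-203, with exon 9: atcatctctggggctgctgctctGGATTAA
The form without the exon ends with 1 base of the last exon and a stop codon, and the form with it gains a codon before its stop.

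The complex II subunit Sdhb showed an unannotated splice site inside its coding region. Its annotated chain Sdhb-201 had 320 counts in replicate 1 and 464 in replicate 2. A chain whose second exon begins at chr4:140966501 in place of chr4:140966495, on the plus strand, had 28 counts (7.71% of the gene's counts) in replicate 1 and 46 counts (8.66%) in replicate 2. It leaves out 6 bases, positions 73 to 78 of the coding sequence, and all other introns are those of Sdhb-201. The junction of exons 1 and 2 is shown in both forms (GENCODE M21, mm10), with capitals for the 6 bases that the unannotated form leaves out.
Sdhb annotated junction: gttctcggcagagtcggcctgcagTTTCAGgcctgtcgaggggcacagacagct
Sdhb unannotated junction: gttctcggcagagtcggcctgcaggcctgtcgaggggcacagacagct
The 6 bases end in ag, the pair of bases at which introns end, and their number is a multiple of 3. Across all members 37 unannotated chains in 24 genes were seen in both libraries with at least 5 counts in sum, out of 269 chains seen in both. Those of Ndufs1 held the most counts, 167 over both libraries, followed by those of Atp5j with 92 and Sdhb with 79.

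Gene by gene, the subunits were mostly lower in replicate 1. Fisher's exact test on each of 11027 genes with at least 10 counts in sum, adjusted over all of them, called 9.74% of genes different between the libraries, 4.49% higher and 5.25% lower in replicate 1. Of the 82 subunit genes tested 40 were called, 2 higher and 38 lower in replicate 1. The median log2 ratio of replicate 1 over replicate 2 was -0.37 over the 82 genes and 0.04 over all genes tested, and 74 of the 82 ratios were under 0. By complex 18 of 37 genes were called for complex I, 3 of 4 for II, 4 of 9 for III, 7 of 14 for IV and 8 of 18 for V. The test knows counting error alone, and with a spread between libraries allowed for, as a preset coefficient of variation, edgeR's exact test called 2 of the 82 at 0.1, Cox6a1 and Ndufa7, against 1.56% of all genes tested, and 0 at 0.2, against 0.508%. With such a spread the members' share was thus near that of all genes.

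The genes higher in replicate 1 were Sdha, with a log2 ratio of 0.40 (adjusted p = 2.05e-07, Fisher's exact test), and Atp5a1, with a log2 ratio of 0.38 (adjusted p = 1.02e-19, Fisher's exact test). Their annotated transcripts have 2900 and 2471 bases. The longest annotated transcripts of the set, Ndufb2 with 4371 bases and Sdhc with 3171 bases, had log2 ratios of -0.41 (not called) and -0.56 (called). These are annotated lengths, and the reads behind a matched intron chain can be shorter. A 455-base Ndufb2 model, whose chain differs by 4 bases at a donor site, held 28 counts in replicate 1 and 37 in replicate 2. The difference with the lowest adjusted p was that of Cox4i1, which was lower in replicate 1 by a log2 ratio of -0.70 (adjusted p = 1.43e-39, Fisher's exact test). The largest ratio was that of Cox6a1, the broad form, at -1.28, and Cox7a2l followed at -0.92 and Ndufa7, an accessory subunit of complex I, at -0.90.

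Among the core subunits of complex I the called genes were Ndufs3 at -0.50, Ndufv2 at -0.47 and Ndufs7 at -0.37, so 3 of 7 core subunits were lower in replicate 1. Among the other genes with complex I symbols 15 of 30 were lower. Besides Ndufa7 these were Ndufs5 (-0.79), Ndufb4 (-0.76), Ndufa13 (-0.73), Ndufa12 (-0.69), Ndufc2 (-0.68), Ndufb8 (-0.63), Ndufs4 (-0.52), Ndufb5 (-0.51), Ndufb7 (-0.51), Ndufa2 (-0.47), Ndufb10 (-0.46), Ndufb9 (-0.45), Ndufa8 (-0.43) and Ndufa4 (-0.31). In complex II, Sdhc (-0.56) and Sdhb (-0.51) were lower in replicate 1. In complex III, Uqcr10 (-0.53), Uqcrq (-0.40), Uqcrfs1 (-0.29) and Cyc1 (-0.27) were lower, with both core proteins not called. In complex IV, Cox8a (-0.59), Cox6b1 (-0.50), Cox6a2 (-0.44) and Cox5b (-0.42) joined Cox6a1, Cox7a2l and Cox4i1. In complex V, Atp5f1 (-0.63), Atp5g1 (-0.53), Atp5o (-0.48), Atp5mpl (-0.42), Atp5l (-0.39), Atp5c1 (-0.36) and Atp5j (-0.29) were lower. Every value in this paragraph is a log2 ratio of replicate 1 over replicate 2, and 20 of the 40 called genes had an absolute ratio of 0.5 or more.

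Short transcripts of other genes were also lower in replicate 1. The tested subunits had a median annotated transcript length of 760.5 bases, and the other 10945 genes one of 2850 bases. For transcripts up to 600 bases the median log2 ratio was -0.35 over 25 subunit genes and -0.43 over 262 other genes. From 600 to 1000 bases it was -0.42 over 28 subunit genes and -0.45 over 600 other genes. Above 1000 bases it was -0.28 over 29 subunit genes and 0.04 over 10083 other genes. In the shorter classes the subunits thus lay near other genes of like annotated length, and above 1000 annotated bases their median was lower. That last class has no upper limit. Subunits and other genes were not matched for length within it, so its medians may compare unlike lengths. The classes go by annotated length, which the models read need not have. Ndufa13, for example, has an annotated transcript of 1251 bases but a leading model of 573 bases in both libraries. The share called, however, was 36.0%, 53.6% and 55.2% of subunit genes from the shortest to the longest class, and 10.7%, 20.3% and 8.77% of other genes in the same order. The median count in the sum of both libraries was 510 for the tested subunit genes and 56 for the other genes. Spearman's rho between ratio and length was 0.16 over the 82 subunit genes and 0.38 over the others, as a description. The part of transcript length in the subunit difference was not tested. Nor was that of the adipocyte, Schwann cell and epidermal markers, lower in replicate 1, or of the fibroblast and fast-fibre markers, whose sums were higher in it.

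**Figure D4:**
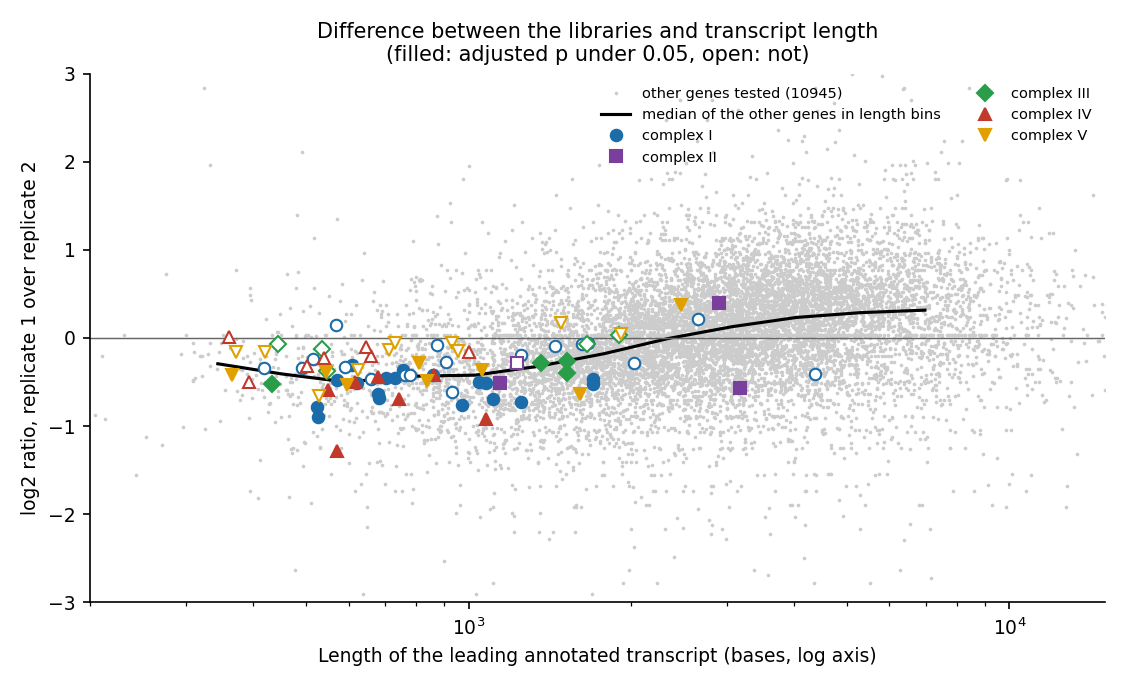
Log2 ratio of replicate 1 over replicate 2 against the length of the leading annotated transcript (bases, log axis) for 82 subunit genes (symbols by complex, filled where called) and 10945 other genes (grey dots, of which 147 lie outside the axes), with the median of the other genes in length bins as a line. Most subunits lie under 0. Those with annotated transcripts up to 1000 bases lie near the line of the other genes. Of those with long annotated transcripts, Sdha and Atp5a1 lie above 0 but Ndufb2 and Sdhc under it.

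Other genes of the pathway were read in the same tables. Of the 13 subunits encoded in mitochondrial DNA, 4 had no count and the sum was 289 counts in replicate 1 and 477 in replicate 2. The nuclear genes had 29677 counts in replicate 1 and 35339 in replicate 2. How much mitochondrial RNA the library preparation and read filters kept is not known. These sums therefore do not give the ratio of mitochondrial to nuclear subunit RNA in the tissue. The highest was mt-Co1, the catalytic core of complex IV, at 155 CPM in replicate 1 and 240 CPM in replicate 2, and mt-Cytb followed at 68.4 ± 25.9 CPM (SD, n = 2); these 2 were called lower in replicate 1. Cycs, the somatic cytochrome c, had 254 CPM in replicate 1 and 332 CPM in replicate 2 and was called lower in replicate 1 (log2 ratio -0.38, adjusted p = 0.0194, Fisher's exact test), while the testis form Cyct had no count. Ndufab1, the acyl carrier protein of complex I, averaged 264 ± 27.0 CPM. The choice by symbol did not match it, so the complex I counts leave it out. Over all genes tested, 4.49% were called higher and 5.25% lower in replicate 1. Of 46 assembly factors 45 were tested, and 0 were higher and 2 lower in replicate 1. The highest was Cox14 at 154 ± 21.5 CPM, and the lowest was Pet117 with 0 counts in replicate 1 and 2 in replicate 2. Of 10 regulators of mitochondrial genes 2 were higher in replicate 1, Ppargc1b, a coactivator, by a log2 ratio of 1.39 and Polrmt, the mitochondrial RNA polymerase, by 1.20, and 0 were lower. The regulators ranged from 5.45 CPM for Tfb1m to 63.3 CPM for Esrra, the estrogen-related receptor alpha. Atpif1, the inhibitor of the ATP synthase, had 76.1 CPM in replicate 1 and 105 CPM in replicate 2 and was not called.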

How the data were processed

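Transcript models and their whole-number counts per library were taken as the authors deposited them, in the table format of TALON, with mm10 and GENCODE M21 named per the labels and the file headers; platform, aligner and read filters: not given in the sources used here. Each deposited model has a class: annotated (Known), incomplete (ISM), new combination of annotated sites (NIC), new site (NNC) or genomic. Gene counts are sums over every class, and CPM used annotated mouse gene counts as the denominator. Libraries were compared with Fisher's exact test, two-sided, on each gene (scipy 1.17.1; at least 10 counts in sum; Benjamini-Hochberg over all genes; threshold 0.05) and log2 ratios with a prior count of 0.5. Leading chains were tested likewise, at 20 counts or more in each library. Intervals are exact (Clopper-Pearson, 95%). No p-value is given for the muscle-form shares, whose pairs were chosen with results known. Both tests were tried on simulated counts that held counting error alone, so the simulation does not cover a further spread between libraries. edgeR 4.0.16, DESeq2 1.42.0 and blastn 2.17.0 served the alternatives. Named were the leading and lowest members of each complex, the paralogs and the called members. Members and lists were chosen with earlier results of these data known. Coordinates and sequences are those of GENCODE M21.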

Additional observations from a re-analysis of the deposited data

Results flagged for a closer look

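Some signal lay in loci that the choice by symbol and gene type left out. Ndufb1-ps, which the annotation types as a long non-coding RNA at a bidirectional promoter and not as protein-coding, had 87 counts in replicate 1 and 92 in replicate 2, a mean of 88.4 ± 1.79 CPM (SD, n = 2); RefSeq lists the same locus as the protein-coding gene Ndufb1, a complex I subunit. Unannotated loci on the strand opposite a member held counts for 40 members, 132 in replicate 1 and 158 in replicate 2. For 3 members they passed 10 counts in each library: the loci opposite Atp5g2 held 24 counts in replicate 1 and 16 in replicate 2, those opposite Ndufa13 held 14 and 24 counts in the same order, and those opposite Ndufs6 held 12 counts in each library.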

How the results depend on the processing

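The 40 subunit genes called different between the libraries became 2 with edgeR's exact test at a preset coefficient of variation of 0.1 (172 of all 11027 genes) and 0 at 0.2 (56 of all genes), and 1 where an absolute log2 ratio of 1 was required as well (348 of all genes). The other scalings, count minimums and classes gave 34 to 46 called members, and the median log2 ratio stayed between -0.41 and -0.36. Over all genes the same settings called 902 to 1091, out of differing numbers tested. The share called ran from 5.05% of 17859 genes with no minimum count to 18.3% of 5949 genes with at least 50 counts in sum. The 0 genes called for the leading chain became 2 with incomplete and genomic chains in the denominator, where 55 of all 5351 genes were called. With annotated and new chains alone the level was 0.196% for complex II, 0.494% for III and 1.12% for V. Per length, a setting chosen after seeing the data, the muscle share was 19.7% for Cox7a and 57.4% for Cox8. With a single library the shares of annotated gene counts ran from 0.748 to 0.957% for complex I, 0.187 to 0.189% for II, 0.421 to 0.477% for III, 0.425 to 0.586% for IV and 1.19 to 1.23% for V. The muscle shares ran from 76.5 to 85.4% for Cox6a, 11.6 to 13.9% for Cox7a and 41.9 to 52.1% for Cox8, so that the majority form of Cox8 depends on the library. Matching splice sites within 5 bases moved 1 of 77 leading shares by over 5 points, that of Ndufb2, to 95.1% against 62.2% with exact sites, its chains differing by 4 bases at a donor site. Levels fell over 1.5-fold with annotated and new chains alone in 7 genes: Ndufa4, Ndufa13, Ndufb3, Atp5f1, Atp5j, Atp5g2 and the second Atp5o. No pseudogene whose name is a member's symbol followed by -ps held counts. No paired analysis was possible because the series has a single group.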

Other observations

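Processed pseudogenes, which are spliced copies of a gene elsewhere in the genome, took part of the subunit signal. By sequence (at least 90% identity over at least 50% of the pseudogene), 13 pseudogenes with counts matched 11 members best, and together they held 451 counts in replicate 1 and 700 in replicate 2. The copies of Atp5g2 held 188 counts in replicate 1 and 243 in replicate 2, those of Cox7c held 155 and 210 counts in the same order, and that of Ndufs5 held 38 and 45. The copy of Cox7a2l, Gm6969, held 10 counts in replicate 1 and 97 in replicate 2, beside 62 and 121 counts on Cox7a2l itself. Whether reads came from the copy or from the gene cannot be told from the counts, so the levels of Atp5g2, Cox7c, Ndufs5 and Cox7a2l are uncertain. These counts were also added to the genes they match, an alternative chosen after seeing the data. The shares of complexes I, III, IV and V each moved by less than the SD of the libraries. No pseudogene with counts matched a complex II gene or a gene of the muscle-form pairs best, so those shares could not move.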
